A study of Macaca fascicularis with 3 samples.

Results

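The genes described here were DAZL, DDX4, BOLL, CPEB1, YBX2 and ELAVL2, which encode proteins that bind messenger RNA or remodel RNA-protein complexes in germ cells. They were taken by symbol, and each of the 6 matched 1 of the 26017 monkey genes counted. Their transcripts were followed in 2186 monkey germ cells among 7827 cell barcodes. The germ cells were derived from the cynomolgus monkey (Macaca fascicularis) embryonic stem cell line 15XRi-AGVT#7, labelled wildtype, which carried the reporters TFAP2C-EGFP (AG) and DDX4-tdTomato (VT). They had been cultured in aggregates with mouse ovarian somatic cells, the xenogeneic reconstituted ovary (xrOvary). The mouse cells were of embryonic stage E13.5 or E14.5 or E15.5, with 1 library for each stage and 1 nominal culture age on all 3 labels. Differences between stages therefore had no replicate check, and the 3 libraries served as replicates only for comparisons between germ cell states. Nothing in the labels says that the 3 came from separate inductions. The p-values therefore measure only how differences between states varied over these libraries.

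In germ cells, messenger RNAs are often made well before they are translated. DAZL and BOLL belong to the DAZ family of RNA-binding proteins, which act on the 3′ end of messengers to control translation: DAZL marks germ cells that have settled in the gonad and is needed for entry into meiosis, and BOLL is the family's most conserved member. DDX4 (VASA) is an RNA helicase of the germ granule. CPEB1 binds the cytoplasmic polyadenylation element and switches messengers between storage and poly(A) tail extension, YBX2 packages stored messengers in gametes, and ELAVL2 is a Hu-family protein that binds AU-rich elements.

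Counts were of unique molecular identifiers (UMIs), each standing for 1 captured RNA molecule, and levels are given as CPM, the UMIs of a gene relative to all UMIs of the summed cells. Values given 3 at a time follow the order of mouse stage, and EGR4/PIWIL4 values given as pairs are those of E14.5 and then E15.5. The libraries held 537, 536 and 1113 germ cells with 31364271, 24342943 and 57505722 UMIs, and median depths of 55620, 43003 and 48553 UMIs per cell. Germ cells were barcodes with at least 10000 UMIs and 2 to 20% of them in the 13 mitochondrially encoded genes. Sorting had selected large cells with either reporter, and the mouse cells were mixed back, so the proportion of germ cells reflects the mixing, and the DDX4 reporter was part of the gate. Between 199 and 643 barcodes were shared by each pair of libraries, and no shared barcode was a germ cell in both. A germ cell barcode that recurred in another library did so as a shallow barcode, with median depths of 611 to 1494.5 UMIs, under the minimum for germ cells.

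The germ cells were divided by genes that are not among the 6. POU5F1-high cells (380) carried the pluripotency and early germ cell factor above 627 CPM, STRA8-positive cells (353) the retinoic acid target of meiotic entry above 72.1 CPM, and SYCE3-high cells (96) the synaptonemal complex gene above 617 CPM. A further 56 cells carried EGR4 and PIWIL4, genes known from prospermatogonia, above 97.7 CPM in sum. The other 1301 cells passed no gate and are called remaining germ cells. These classes are ranges of a continuous level: 128 cells lay within 25% below the STRA8 cut and 84 within 25% above it, and 9 cells passed more than 1 gate. Only 2 EGR4/PIWIL4 cells came from E13.5, so that state was measured in 2 libraries.

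The labels call the cells of all 3 libraries early oogonia, and the markers of that name were high in a minority of them. The 7 early oogonia markers, which include the gate gene POU5F1, summed to 2565 to 2902 CPM in POU5F1-high cells. In any other state they summed to no more than 271 CPM. POU5F1-high cells made up 10.1%, 22.6% and 18.4% of germ cells. The 8 meiotic markers, which include the gate gene SYCE3, summed to 3888 to 5534 CPM in SYCE3-high cells. Elsewhere they summed to at most 587 CPM. Sums that include a gate gene were partly set by the gates. In EGR4/PIWIL4 cells the 4 prospermatogonia-type markers, which include both gate genes, summed to 432 to 480 CPM and the 6 oocyte markers to 219 to 272 CPM. The 6 mouse supporting cell markers, read through monkey gene models, summed to 35.2 to 108 CPM in the germ cell states, with 104 to 105 CPM in EGR4/PIWIL4 cells, against 2884 to 3053 CPM in mouse barcodes. The 6 stromal markers summed to 14.1 to 104 CPM in the germ cell states. The 2 surface epithelial markers found among the genes, KRT19 and LHX2, summed to 21.0 to 34.9 CPM in POU5F1-high, 164 to 254 CPM in remaining, 204 to 295 CPM in STRA8-positive, 48.2 to 102 CPM in SYCE3-high and 289 to 334 CPM in EGR4/PIWIL4 cells. The 3 endothelial markers summed to 38.6 to 47.0 CPM in POU5F1-high cells and 8.31 to 12.1 CPM in remaining cells, and PTPRC, the only blood marker found of 2, stood at 12.97 and 13.55 CPM in EGR4/PIWIL4 cells and at most at 0.584 CPM in remaining cells. The part of the supporting and stromal signal was not tested beyond leaving out the 122 germ cells with the highest mouse signal, a step chosen after seeing the data. That signal was read from 8 supporting and stromal markers only. The part of the surface epithelial, endothelial and blood markers was not tested. Of the surface epithelial markers, LHX2 was higher in germ cells than in mouse barcodes, and KRT19 was lower.

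**Figure D1:**
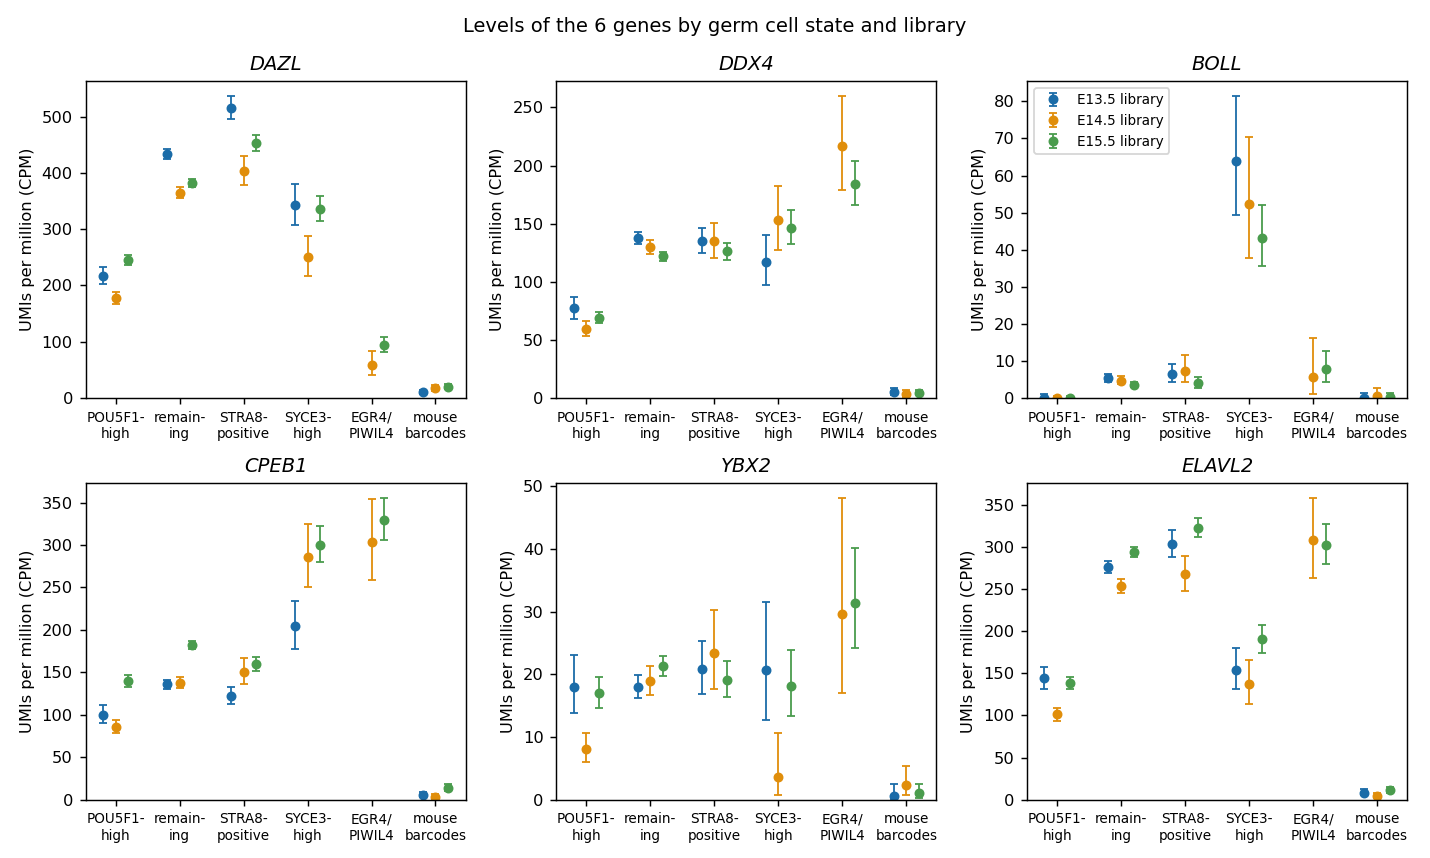
Level of each gene in CPM (one panel a gene, linear axes that start at 0 and differ between panels) in each germ cell state and in mouse barcodes, one point per library with exact 95% Poisson intervals for counting error. DAZL was lowest in EGR4/PIWIL4 cells (59.3 and 93.9 CPM), and BOLL stood at 43.3 to 63.9 CPM in SYCE3-high cells against at most 7.74 CPM in every other state.

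DAZL, DDX4, CPEB1 and ELAVL2 were found in nearly all germ cells and BOLL in few. At least 1 UMI was counted in 98.8% of germ cells for DAZL, 95.3% for DDX4, 97.4% for CPEB1, 97.8% for ELAVL2, 54.4% for YBX2 and 14.1% for BOLL. In 1080 of the 2186 cells 5 of the 6 genes had a UMI, and in 159 cells all 6 did. Among SYCE3-high cells, 34 of 96 (35.4%) had all 6, and among POU5F1-high cells none of 380 did, the one with a BOLL UMI included. Mouse barcodes also held UMIs of these genes, and whether these came from free RNA, doublets or mouse reads aligned to monkey genes was not tested. In 647 mouse barcodes, whose median depth was 12820 UMIs against 48804 in germ cells, DAZL was found in 12.4%, ELAVL2 in 8.50%, CPEB1 in 7.73%, DDX4 in 4.95%, YBX2 in 1.55% and BOLL in 0.309%. Single mouse barcodes held up to 18 DAZL and 22 CPEB1 UMIs.

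With each cell thinned to 10000 UMIs, so that depth no longer differed, the shares in germ cells were lower and stayed above those in mouse barcodes. Every germ cell was deep enough to be kept. DAZL was then found in 90.6% of germ cells against 8.66% of mouse barcodes, ELAVL2 in 83.2% against 5.41%, CPEB1 in 72.5% against 5.72%, DDX4 in 63.3% against 3.40%, YBX2 in 16.7% against 1.08%, and BOLL in 4.99% against 0 of 647. A count of 0 there allows a share of up to 0.569% by the exact binomial interval. All intervals and limits here cover counting error only.

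**Figure D2:**
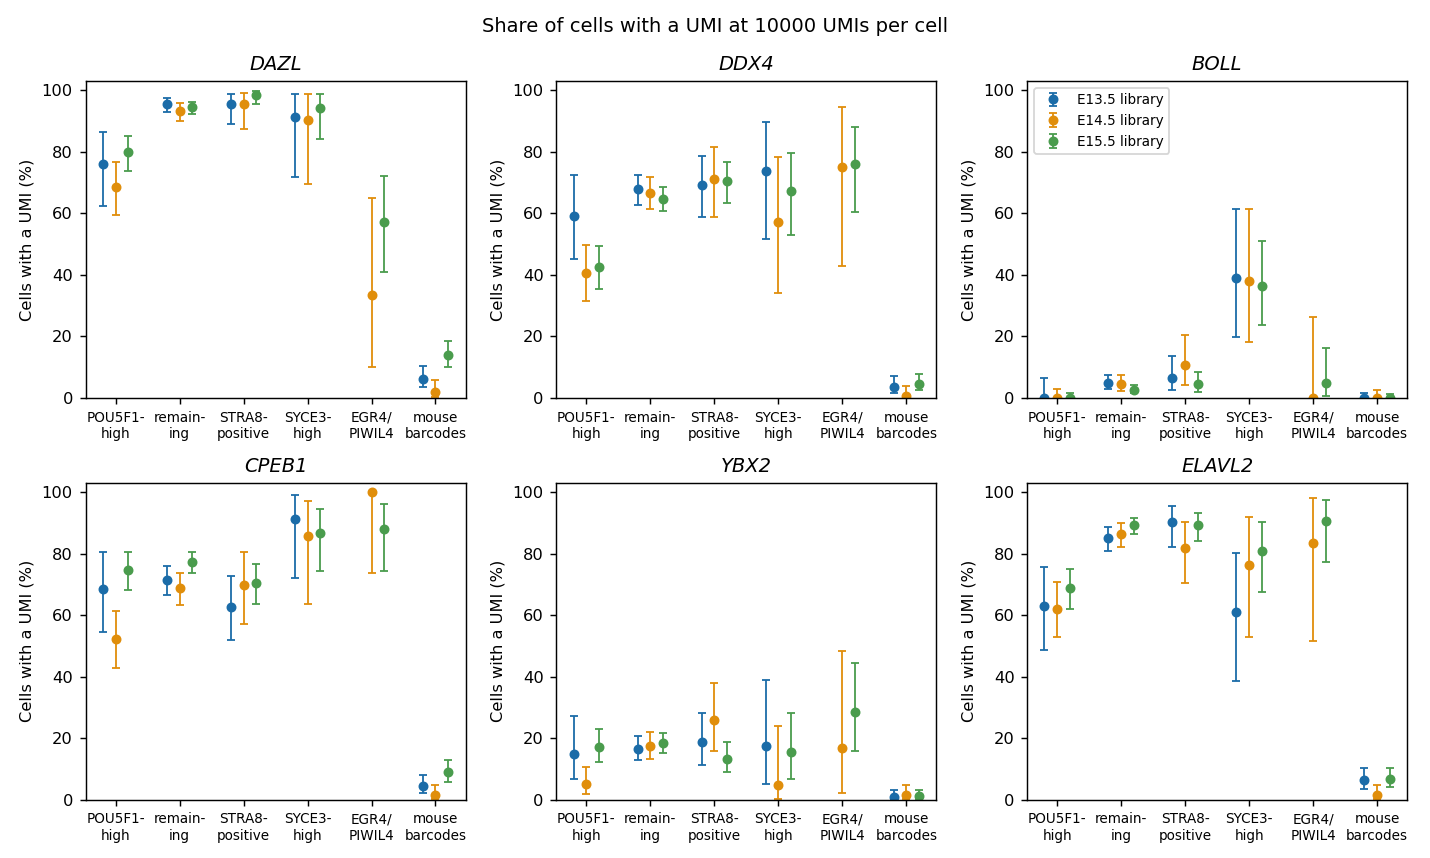
Percent of cells with at least 1 UMI of each gene after thinning every cell to 10000 UMIs, by state and for mouse barcodes, one point per library with exact 95% binomial intervals. BOLL was found in 36.5 to 39.1% of SYCE3-high cells and in at most 10.6% of any other state of a library.

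DAZL was highest in STRA8-positive cells and lowest in EGR4/PIWIL4 cells. Its level was 217, 178 and 245 CPM in POU5F1-high cells, 433, 364 and 382 CPM in remaining cells, and 516, 403 and 453 CPM in STRA8-positive cells. In SYCE3-high cells it was 343, 250 and 335 CPM, and in EGR4/PIWIL4 cells 59.3 CPM in E14.5 and 93.9 CPM in E15.5. Each library gave the same order of states by CPM. No EGR4/PIWIL4 value overlapped that of another state, although both EGR4/PIWIL4 values stood above the 10.1 to 19.8 CPM of mouse barcodes. The thinned share followed the level, from 97.2% of STRA8-positive cells to 75.8% of POU5F1-high and 53.6% of EGR4/PIWIL4 cells.

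BOLL, the other DAZ-family gene, was concentrated in SYCE3-high cells. It was at 63.9, 52.3 and 43.3 CPM in SYCE3-high cells, at 6.42, 7.38 and 4.02 CPM in STRA8-positive cells, and at 5.31, 4.71 and 3.51 CPM in remaining cells. EGR4/PIWIL4 cells had 5.56 and 7.74 CPM, and POU5F1-high cells had 0, 0 and 1 UMI in all. The SYCE3-high values did not overlap those of any other state, while the STRA8-positive values overlapped both the remaining and the EGR4/PIWIL4 values. The EGR4/PIWIL4 values lay above those of remaining cells. Against a floor of 3 UMIs for a library at 0, the level in SYCE3-high cells was at least 75.5-fold (E13.5) and at least 106-fold (E14.5) higher than in POU5F1-high cells, and the E15.5 ratio was 479 with a 95% counting interval of 84.2 to 19063. The POU5F1-high level was at or under that of the mouse barcodes, 0 to 0.463 CPM.

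DDX4 was lowest in POU5F1-high cells and highest in EGR4/PIWIL4 cells. Its level was 77.3, 59.6 and 69.2 CPM in POU5F1-high cells and 138, 130 and 122 CPM in remaining cells. STRA8-positive cells had 135.3, 134.9 and 126 CPM, SYCE3-high cells 117, 153 and 146 CPM, and EGR4/PIWIL4 cells 217 and 184 CPM. The remaining, STRA8-positive and SYCE3-high values overlapped, and by CPM the POU5F1-high values lay below all others. Because cells were sorted on either reporter, cells low in both DDX4 and TFAP2C reporters were not sampled as germ cells.

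CPEB1 was highest in the EGR4/PIWIL4 and SYCE3-high states. It stood at 100.1, 85.8 and 140 CPM in POU5F1-high cells, 136, 138 and 183 CPM in remaining cells and 122, 151 and 160 CPM in STRA8-positive cells. SYCE3-high cells had 204, 286 and 300.3 CPM and EGR4/PIWIL4 cells 304 and 330 CPM. By CPM these last values lay above every value of the first 3 states, and within each state E15.5 was the highest library. With the scaling used in the tests below, the SYCE3-high range (177 to 263) overlapped that of POU5F1-high cells (128 to 193).

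YBX2 had its highest CPM in EGR4/PIWIL4 cells. Its level was 18.0, 8.03 and 17.0 CPM in POU5F1-high cells, 18.0, 18.9 and 21.3 CPM in remaining cells and 20.8, 23.4 and 19.0 CPM in STRA8-positive cells. In SYCE3-high cells it was 20.6, 3.65 and 18.1 CPM, the middle value resting on 3 UMIs in 1 of 21 cells, and in EGR4/PIWIL4 cells 29.6 and 31.4 CPM. The EGR4/PIWIL4 values were the highest 2. Those of POU5F1-high and of SYCE3-high cells overlapped those of remaining cells, and by CPM the STRA8-positive values lay above those of POU5F1-high cells. In edgeR, with the scaling described below, YBX2 in STRA8-positive over POU5F1-high cells stood at log2 -0.06 (adjusted p = 0.82). EGR4/PIWIL4 cells had more YBX2 than SYCE3-high cells in edgeR (log2 0.90, adjusted p = 0.035), with log2 ratios of 2.72 in E14.5 and 0.77 in E15.5. The call was lost without E14.5 (0.64, adjusted p = 0.059) and without E15.5 (1.24, adjusted p = 0.19).

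ELAVL2 was low in POU5F1-high and SYCE3-high cells and higher elsewhere. Its level was 144, 101 and 138 CPM in POU5F1-high cells, 276, 253 and 294 CPM in remaining cells and 303, 268 and 323 CPM in STRA8-positive cells. It was 154, 137 and 190 CPM in SYCE3-high cells and 308 and 302 CPM in EGR4/PIWIL4 cells. The STRA8-positive values overlapped those of remaining cells and of EGR4/PIWIL4 cells, and the EGR4/PIWIL4 values lay above those of remaining cells. The SYCE3-high values lay below all of these and overlapped those of POU5F1-high cells.

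Tests between states used UMI sums per library and state, with the library as a block, in edgeR's quasi-likelihood test with Benjamini-Hochberg adjustment over 15740 genes. Scaling bore on all comparisons with POU5F1-high cells. The 50 most abundant genes took 29.1 to 31.7% of UMIs there and 15.7 to 21.7% in other sums, and the trimmed mean of M-values (TMM) scaling compensates for such a difference in makeup while library totals do not. With totals, an alternative chosen after seeing the data, the median of all genes moved by 0.51 on the log2 scale in remaining over POU5F1-high cells, by 0.23 in EGR4/PIWIL4 over remaining cells, and by 0.06 and 0.09 in the other 2 comparisons. Changes below are relative to the TMM-scaled transcriptome, so a CPM ratio can be larger than the tested fold change.

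**Figure D3:**
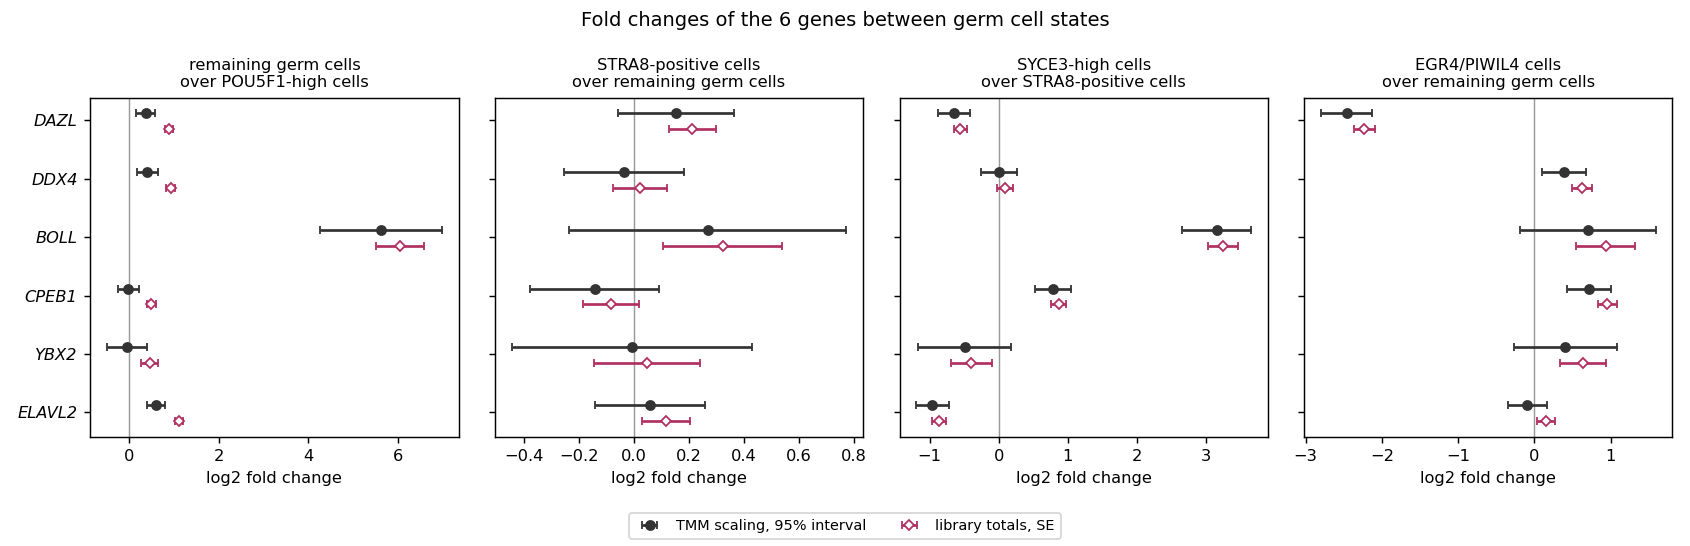
log2 fold change of each gene in the 4 comparisons between states with TMM scaling (filled points, 95% intervals) and with library totals (open points, bars of 1 SE); horizontal axes differ between panels. In remaining over POU5F1-high cells CPEB1 and YBX2 moved from about 0 to 0.50 and 0.46 with totals, and in EGR4/PIWIL4 over remaining cells DAZL stood at -2.46.

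Remaining germ cells had more DAZL, DDX4, BOLL and ELAVL2 than POU5F1-high cells. Of the 6 genes 4 were higher and none lower, where 34.5% of all genes tested were called higher, 31.8% lower and 66.3% in either direction. Because cells were sorted on either reporter, a cell low in the TFAP2C reporter could enter only with the DDX4 reporter. The part of that sort in the DDX4 difference was not tested. ELAVL2 rose by 0.60 ± 0.087 on the log2 scale (SE, n = 3 libraries; edgeR adjusted p = 2.3e-06), DDX4 by 0.41 ± 0.095 (adjusted p = 0.00068) and DAZL by 0.37 ± 0.091 (adjusted p = 0.0012), each with a higher CPM in 3 of 3 libraries. BOLL passed with an adjusted p of 1.5e-08 in the edgeR test; over the pooled libraries the ratio was 89.7 with a counting interval of 16.0 to 3556. CPEB1 stood at -0.02 (95% interval -0.25 to 0.21) and YBX2 at -0.05 (-0.49 to 0.39). Both were called higher with library totals, CPEB1 at 0.50 (edgeR adjusted p = 0.00018) and YBX2 at 0.46 (adjusted p = 0.036). Both estimates lay below the median of all genes with totals, 0.59. With totals, 79.6% of all calls were in the higher direction against 52.0% with TMM. These are shares of the calls, not of all genes tested. No share of all genes tested is given for counts with library totals, here or below.

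Other regulators moved in both directions in the same comparison with TMM scaling, and mostly up with library totals. With TMM 34.5% of all genes were called higher and 31.8% lower. Of 34 other germ cell RNA-binding proteins, all tested, 12 rose and 10 fell (median log2 change 0.07, beside 0.07 over all genes). The neural and germ cell translation regulator MSI1 rose by 3.08 on the log2 scale, while NANOS3 and DND1, repressor proteins of primordial germ cells, fell by 2.69 and 2.14. NANOS2 and ZAR1 passed as higher, at mean levels of 1.59 and 2.36 CPM where POU5F1-high cells had 0 and 0.055 CPM, and ZAR1L fell by 1.25. Of 18 tested among 24 genes of the CPEB and poly(A) machinery, 6 rose and 8 fell (median -0.03). CPEB2 and CPEB3, the paralogs of CPEB1, rose by 3.21 and 1.51 and the cleavage factor gene CPSF2 by 0.81, and PAN2, CPSF4 and CPSF1 fell by 0.70, 0.68 and 0.62. Among 15 tested of 17 cap-binding and repression genes, 3 rose, with the cap-binding protein gene EIF4E3 at 1.62, and 4 fell (median -0.08). The storage granule genes LSM14A and LSM14B fell by 0.72 and 0.70, and DDX6 fell by 0.51. With library totals, where the median of all genes was 0.59, the counts were 23 up and 6 down of 34, 12 up and none down of 18, and 12 up and none down of 15. Of the calls among all genes, 79.6% were then higher. PAN2, CPSF4, CPSF1, LSM14A, LSM14B and ZAR1L then lost their calls, at -0.18, -0.17, -0.11, -0.21, -0.18 and -0.74, and DDX6 stood at 0.0069.

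Of the 4 genes listed as known messenger targets of DAZL or CPEB1, all 4 rose from POU5F1-high to remaining cells, with a median log2 change of 2.48 beside 0.07 over all genes. SYCP1, of the central synaptonemal complex, rose by 3.65, the meiotic cohesin gene SMC1B by 3.19, and SYCP3, of its lateral element, by 1.78. The list is small, its members are meiotic genes, and 2 of them are among the meiotic markers given above.

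STRA8-positive cells did not differ detectably from remaining cells in any of the 6 genes. In this comparison 0 of 6 passed in edgeR, 0 had an unadjusted p under 0.05, and 0 passed in DESeq2, where edgeR called 5.79% of all genes, 2.1% as higher and 3.69% as lower. The estimates ran from -0.14 for CPEB1 (95% interval -0.38 to 0.09) to 0.27 for BOLL (-0.23 to 0.77), and DAZL stood at 0.15 (-0.06 to 0.37). The intervals reached 0.77 for BOLL and 0.43 for YBX2 but no further than 0.37 for the other 4, so larger rises lay outside them.

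Of the other regulators, mainly germ cell RNA-binding proteins differed between these states, where 5.79% of all genes were called. Of the 34 other germ cell RNA-binding proteins 5 rose and 3 fell: LIN28A rose by 0.57 on the log2 scale, and MEIOC and YTHDC2, partners in meiotic entry, by 0.53 and 0.45. NANOS3 fell by 0.65. ELAVL3, a paralog of ELAVL2, and NANOS2 also fell, at mean levels near the floor: 2.997 to 0.646 CPM for ELAVL3 and 1.59 to 0.290 CPM for NANOS2. Of these 6 genes none passed without the library as a block, 5 lost the call without E15.5, 4 without E13.5, 4 in DESeq2 and 1 without E14.5. Of the poly(A) machinery, AURKA, the kinase that phosphorylates CPEB1, fell by 1.32 and the other 17 tested did not pass, nor did any of the 15 cap-binding and repression genes or the 4 listed targets. In edgeR the count of all genes called, 912, fell to 167 without E15.5 and to 356 without E13.5.

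SYCE3-high cells had more BOLL and CPEB1 and less DAZL and ELAVL2 than STRA8-positive cells. Of the 6 genes 2 were higher and 2 lower, against 25% and 27.3% of all genes, so that 4 of 6 passed beside 52.2% in either direction. BOLL rose 8.90-fold (log2 3.15 ± 0.21 SE, n = 3 libraries, edgeR adjusted p = 5.3e-11) and CPEB1 1.72-fold (log2 0.78 ± 0.11, adjusted p = 3.6e-06). ELAVL2 fell by 0.96 ± 0.099 on the log2 scale (edgeR adjusted p = 4.4e-08) and DAZL by 0.64 ± 0.099 (adjusted p = 1.1e-05). All 4 had their direction in 3 of 3 libraries, and all 4 passed with each library left out. DDX4 stood at 0.0016 (95% interval -0.26 to 0.26), and YBX2 at -0.49 (-1.17 to 0.18).

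The YBX2 estimate rested on E14.5. There the ratio of STRA8-positive to SYCE3-high cells was 6.41 with a counting interval of 2.08 to 32.0, whereas it was 1.01 in E13.5 and 1.05 in E15.5. YBX2 passed with no filter on low counts (-0.56, edgeR adjusted p = 0.040) and with the gate thresholds at 0.5 of the reference level in place of 0.25 (-1.30, adjusted p = 0.021).

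Of the other regulators most changed between STRA8-positive and SYCE3-high cells, where 52.2% of all genes were called, 25% higher and 27.3% lower. Among 34 other germ cell RNA-binding proteins 11 rose and 13 fell (median log2 change -0.01, beside -0.05 over all genes). MEIOC rose by 2.05, ELAVL3 from a mean of 0.646 to 17.5 CPM and ZAR1L from 0.388 to 3.30 CPM, and NANOS3 fell by 2.56, LIN28A by 2.48 and the cold-shock protein gene YBX3, a relative of YBX2, by 1.33. In the poly(A) machinery 7 of 18 rose and 8 fell (median 0.07). CPEB4, another CPEB1 paralog, rose by 1.45, CPSF3 by 0.90 and CNOT8, of the deadenylase complex, by 0.87, while the poly(A)-binding protein gene PABPC4 fell by 1.69, CPSF1 by 0.95 and CPSF2 by 0.80. Of 15 cap-binding and repression genes 4 rose and 8 fell (median -0.29), or 4 and 5 with library totals. LSM14B rose by 1.13, and EIF4EBP1, an inhibitor of the cap-binding factor, fell by 1.09, EIF4E itself by 0.73 and the stress granule gene G3BP1 by 0.82. All 4 listed targets rose (median 2.39): SYCP1 by 3.85, SYCP3 by 2.93 and SMC1B by 1.86, in cells that had been chosen by another synaptonemal complex gene.

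EGR4/PIWIL4 cells had less DAZL and more CPEB1 and DDX4 than remaining cells. Of the 6 genes 2 were higher and 1 lower, against 26.8% and 28% of all genes, so that 3 of 6 passed beside 54.8%. DAZL was 5.51-fold lower (log2 -2.46 ± 0.14 SE, n = 2 libraries against 3, edgeR adjusted p = 7.9e-12). CPEB1 rose by 0.72 ± 0.12 on the log2 scale (edgeR adjusted p = 3.7e-05) and DDX4 by 0.38 ± 0.12 (adjusted p = 0.011). The direction of each was the same in both libraries. DDX4 lost its call without E14.5 (0.28, edgeR adjusted p = 0.080), without E15.5 (0.45, 0.12), with no filter on low counts (0.20, 0.20), with mitochondrial limits of 3 to 15% (0.20, 0.27) and in thinned cells (0.42, 0.073). The median mitochondrial share was 4.94 and 5.60% in EGR4/PIWIL4 cells and 6.56 and 8.91% in remaining cells of E14.5 and E15.5, and its part in the result was not tested beyond those limits.

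BOLL, YBX2 and ELAVL2 did not pass between EGR4/PIWIL4 and remaining cells. BOLL stood at 0.70 (95% interval -0.18 to 1.59), YBX2 at 0.40 (-0.27 to 1.08) and ELAVL2 at -0.09 (-0.35 to 0.17). BOLL passed with library totals (0.93, edgeR adjusted p = 0.045), while ELAVL2 turned to 0.15 (adjusted p = 0.28) with totals and was called lower, at -0.42 (adjusted p = 0.010), with mitochondrial limits of 3 to 15%. With totals 62.7% of all calls were higher, and with DESeq2's size factors 59.0%, against 49.0% with TMM.

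In the 3 lists of wider regulators more genes were lower than higher in EGR4/PIWIL4 cells, where 26.8% of all genes were higher and 28% lower. Of 34 other germ cell RNA-binding proteins 7 rose and 15 fell (median log2 change -0.31, beside -0.05 over all genes). NANOS2, a translational repressor of the male germline, rose by 5.02, DND1 by 2.70 and ELAVL3 by 2.57, the last at 0.38 without E15.5, and LIN28A fell by 3.46, MEIOC by 2.38 and NANOS3 by 2.16. In the poly(A) machinery 2 of 18 rose, CPEB2 by 1.32 and CPEB4 by 0.54, and 11 fell (median -0.55), with CPSF2, CPSF4 and the deadenylase gene CNOT6 down by 1.86, 1.50 and 1.09. Of 15 cap-binding and repression genes 2 rose and 7 fell (median -0.35): LSM14B rose by 1.33 and EIF4ENIF1 by 0.54, and CAPRIN1 fell by 1.45, EIF4G2 fell by 1.37 and EIF4G1 by 1.10. Of the 4 listed targets SYCP1 rose by 3.35, and SYCP3, SMC1B and TEX11 fell by 1.98, 1.63 and 1.30. With library totals, where the median of all genes was 0.19, the counts were 9 up and 13 down of 34 (median -0.08), 4 up and 8 down of 18 (-0.32) and 5 up and 7 down of 15 (-0.11). NANOS2 is also on the list of prospermatogonia-type markers, and it entered no gate.

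Ordered by mean CPM, neighbouring states differed in 9 of 24 steps by edgeR, with p-values adjusted over all genes in each of 10 pairs of states. In the 6 pairs beyond the 4 comparisons above, the share of all genes called was 69.3% for SYCE3-high and 66.9% for STRA8-positive and 67.6% for EGR4/PIWIL4 cells over POU5F1-high cells, 55.7% for SYCE3-high over remaining cells, and 54.4 and 57.2% for EGR4/PIWIL4 over STRA8-positive and SYCE3-high cells. For DAZL the order was STRA8-positive, remaining, SYCE3-high, POU5F1-high and EGR4/PIWIL4 cells; the first pair of neighbours did not differ beyond their spread. The step from SYCE3-high to POU5F1-high cells was -0.12 (edgeR adjusted p = 0.28) with TMM and 0.54 (adjusted p = 2.9e-05) with library totals. For DDX4 the EGR4/PIWIL4 state led SYCE3-high (log2 0.42, edgeR adjusted p = 0.011), SYCE3-high, STRA8-positive and remaining cells did not differ in neighbouring steps, and POU5F1-high came last. For BOLL the steps below SYCE3-high cells (2.72 to EGR4/PIWIL4, edgeR adjusted p = 1.8e-07) and above POU5F1-high cells passed. For CPEB1 the step from SYCE3-high to remaining cells passed (0.64, edgeR adjusted p = 2.2e-05), and that from STRA8-positive to POU5F1-high cells was -0.16 (adjusted p = 0.18) with TMM and 0.41 (adjusted p = 0.0017) with totals. For YBX2 none of the 4 steps passed with TMM in edgeR, and with totals the step from remaining to POU5F1-high cells did, as given above. With totals 12 of the 24 steps passed.

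ELAVL2 gave a step that passed in opposite directions under the 2 scalings. By CPM the order was EGR4/PIWIL4, STRA8-positive, remaining, SYCE3-high and POU5F1-high cells, and the drop from remaining to SYCE3-high cells passed (log2 0.90, edgeR adjusted p = 6.5e-08). The last step was -0.30 (adjusted p = 0.012) with TMM, that is, SYCE3-high cells below POU5F1-high cells, although the mean CPM was 161 ± 27.1 in SYCE3-high and 128 ± 23.3 in POU5F1-high cells (SD, n = 3 libraries). With library totals it was 0.36 (adjusted p = 0.0040).

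BOLL outside the SYCE3-high state was found mainly in cells with more SYCE3. Of 309 cells with a BOLL UMI, 169 were remaining, 76 SYCE3-high, 47 STRA8-positive, 16 EGR4/PIWIL4 and 1 POU5F1-high. In remaining cells the median SYCE3 level was 186, 207 and 187 CPM where BOLL had a UMI, and 61.4, 63.0 and 63.2 CPM where it had none. The median UMIs of these cells were 50155 against 57956.5, 43986 against 42758 and 40357 against 49295. STRA8-positive cells gave 208, 179 and 234 CPM with a BOLL UMI and 86.6, 79.6 and 78.6 CPM without, at median UMIs of 51531 against 51729, 38072.5 against 35463 and 49014.5 against 43538. The part of depth was not tested. At 3 or more UMIs, BOLL was counted in 82 cells, 41 of them SYCE3-high and 30 remaining.

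**Figure D4:**
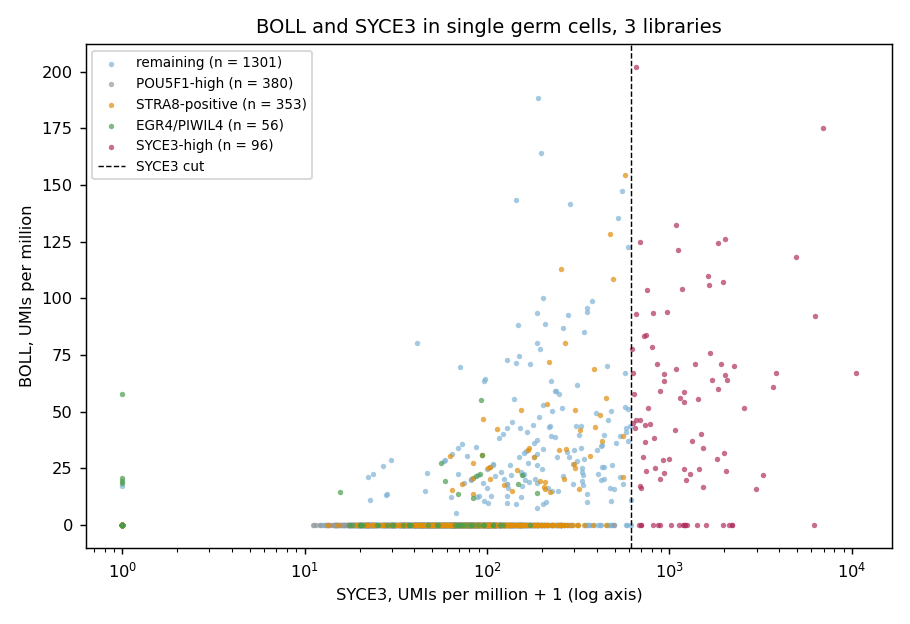
Each germ cell's BOLL level (CPM, linear axis) against its SYCE3 level (CPM + 1, log axis), coloured by state, with the SYCE3 threshold as a dashed line. Points above 0 on the BOLL axis lie mostly at higher SYCE3 levels, also left of the threshold, and most cells without BOLL lie on the line at 0.

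Across single cells the correlations among the 6 genes were low. Pearson's r of log(1 + UMIs per 10000) was computed per library and averaged over the 3, as a description of cells that share library, depth and state. The highest values were for DDX4 with ELAVL2 (0.30), DDX4 with CPEB1 (0.28) and CPEB1 with ELAVL2 (0.24), followed by DAZL with ELAVL2 (0.21), and BOLL with ELAVL2 was the most negative (-0.17). In counts thinned to 10000 UMIs the first 3 fell to 0.15, 0.11 and 0.14. Before thinning the median germ cell held 0 BOLL, 1 YBX2, 5 DDX4, 7 CPEB1, 11 ELAVL2 and 16 DAZL UMIs. The part of such low counts in r was not tested beyond thinning, so a low r need not mean a weak relation. Among the 15 pairs the median was 0.061 over all germ cells and 0.0002 within states.

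Part of these values was shared by the states. Within remaining cells DDX4 with ELAVL2 was 0.26, DDX4 with CPEB1 0.24 and CPEB1 with ELAVL2 0.25, close to those over all cells, whereas DAZL with ELAVL2 went from 0.21 to -0.02 and stood at 0.35 within POU5F1-high cells. DAZL, ELAVL2 and BOLL each had a larger value, in either sign, with a gate gene than with any of the other members. DAZL with POU5F1 was -0.39, with PIWIL4 -0.34 and with STRA8 0.30, and ELAVL2 with POU5F1 was -0.36. BOLL with SYCE3 was 0.59 (0.54 to 0.66 over the libraries), 0.47 within remaining cells and 0.35 in thinned counts, and BOLL with SYCP3 was 0.51.

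**Figure D5:**
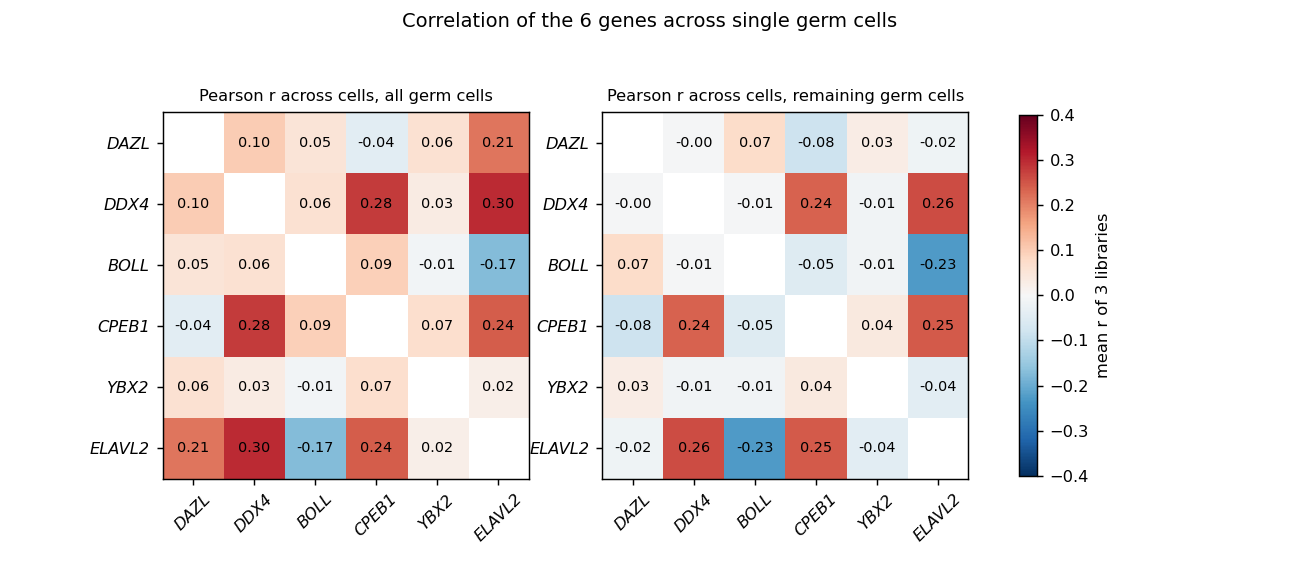
Mean Pearson r over the 3 libraries for each pair of the 6 genes, across all germ cells (left) and within remaining germ cells (right). DDX4, CPEB1 and ELAVL2 gave 0.24 to 0.30 with one another on the left and 0.24 to 0.26 on the right, and DAZL with ELAVL2 went from 0.21 to -0.02.

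Over the 14 sums of library and state, the genes most alike each member differed between members. With log2(CPM + 1) and 10345 genes compared, DAZL was most like PARP2 (Pearson r 0.99), EFR3A and IDH1, DDX4 like CAPRIN2 (0.99), KLHL35 and HENMT1, and BOLL like C7H15orf48 (0.99), CCDC122 and SPESP1. CPEB1 was most like ALKBH5 (0.97), CPSF3L and ZBTB17, YBX2 like MFAP2 (0.93), RAI1 and IP6K1, and ELAVL2 like FAAP20 (0.98), TMEM183A and KCNMB4. Among the members the highest values over the 14 sums were CPEB1 with DDX4 (0.78), DDX4 with ELAVL2 (0.72) and BOLL with CPEB1 (0.71), and the lowest CPEB1 with DAZL (-0.42). All values over the sums used CPM without TMM scaling. Mean CPEB1 in POU5F1-high and remaining cells was 108 and 152 by CPM, but 151 and 149 with TMM. The part of scaling in these correlations was not tested.

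Over all germ cells the members' levels differed by less than 2-fold between the 3 libraries. Over all germ cells DAZL was at 417, 311 and 354 CPM, DDX4 at 130, 116 and 116 CPM, BOLL at 6.76, 5.42 and 4.92 CPM, CPEB1 at 133, 134.9 and 181 CPM, YBX2 at 18.5, 16.3 and 20.3 CPM, and ELAVL2 at 260, 214 and 264 CPM. None of the 18 ratios between libraries reached 2-fold with at least 20 CPM in 1 library. BOLL, at 6.76 CPM or less, could not meet that rule, nor could YBX2 in E14.5 over E13.5, at 18.5 CPM or less. Of all genes with at least 20 CPM in 1 library, 0.498% reached 2-fold in E14.5 over E13.5, 0.238% in E15.5 over E13.5 and 0.324% in E15.5 over E14.5. With so few genes past the rule, its result does not set the members apart from other genes. The largest 3 of the 18 on the log2(CPM + 1) scale were CPEB1 in E15.5 over E13.5 (0.45) and over E14.5 (0.42), and DAZL in E14.5 over E13.5 (-0.42). Within POU5F1-high, remaining and STRA8-positive cells CPEB1 was at 0.48, 0.43 and 0.38 in E15.5 over E13.5 and at 0.69, 0.40 and 0.082 in E15.5 over E14.5, and DAZL at -0.28, -0.25 and -0.35 in E14.5 over E13.5. The ratios furthest from 0 within a state were of YBX2 in POU5F1-high cells, at -1.08 in E14.5 over E13.5 and 0.996 in E15.5 over E14.5, where its level was at most 18.0 CPM. With 1 library for each mouse stage, these differences cannot be told apart from those between any 2 libraries.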

How the data were processed

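The authors deposited UMI counts per gene and barcode for 3 libraries (10x 3′ v3.1), written by Cell Ranger (version 6.0.1), per the file headers. The build and gene models behind them were not given in the sources used here. All genes counted were monkey genes, so reads of mouse cells appear only where they aligned to those. The 6 genes, the gene lists and the gates were chosen with earlier results of these data known. A gate's threshold was 0.25 of the mean CPM of the top 2% of germ cells, with at least 2 UMIs (3 for EGR4 with PIWIL4, at least 1 of each), in the order EGR4/PIWIL4, SYCE3, STRA8, POU5F1. Mouse barcodes had at most 1% mitochondrial UMIs and at least 10000 UMIs. No doublet caller was run.

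Counts were summed per library and state (at least 10 cells, 14 sums) and tested with edgeR 4.0.16 (R 4.3.3; filterByExpr, TMM, quasi-likelihood, adjusted p under 0.05), all 5 states in 1 fit with the library as block, because the states of a library come from the same cells' preparation. DESeq2 1.42.0 was an alternative. Other values used Python 3.11.15, numpy 2.4.6, scipy 1.17.1 and pandas 2.3.3. Intervals are exact Poisson or Clopper-Pearson (95%). Named besides the 6 genes are, per list and comparison, up to 3 of the largest changes in each direction among those past the threshold, and the 3 genes most alike each member. On simulated counts for SYCE3-high over STRA8-positive cells (15745 genes), 60% of 2-fold and 85% of 4-fold changes were recovered, with 6 false calls.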

Additional observations from a re-analysis of the deposited data

Results flagged for a closer look

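The libraries gave opposite signs in 5 comparisons of single genes between states on the log2(CPM + 1) scale, none of them called in the edgeR test, and the difference between libraries was not tested. YBX2 in remaining over POU5F1-high cells ran from -0.0027 to 1.14, and in STRA8-positive over remaining cells from -0.16 to 0.29. DDX4 in STRA8-positive over remaining cells ran from -0.025 to 0.051, and in SYCE3-high over STRA8-positive cells from -0.21 to 0.21. CPEB1 in STRA8-positive over remaining cells ran from -0.19 to 0.13.

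All 6 genes were also counted in 81 barcodes that were left out for mitochondrial shares above 20%, at levels above those of the mouse barcodes. They stood at 300.4 CPM for DAZL, 114.5 for DDX4, 12.52 for BOLL, 123 for CPEB1, 22.5 for YBX2 and 161 for ELAVL2. The median depth of these barcodes was 16333 UMIs.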

How the results depend on the processing

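In the 4 comparisons the only call among the 6 genes that any setting ended was that of DDX4 in EGR4/PIWIL4 over remaining cells, with the values given above. Counts of all genes called by edgeR moved more. In STRA8-positive over remaining cells 912 became 1377 with no filter, 194 with no replicate block, 581 in thinned cells, and 167 to 1039 with a library left out. In EGR4/PIWIL4 over remaining cells 8628 became 4263 in thinned cells and 4235 to 8416 with a library left out. In thinned cells 10434 became 6602 (remaining over POU5F1-high) and 8223 became 4702 (SYCE3-high over STRA8-positive). Without the block, where the pairing of states by library is dropped, no call of the 6 genes in the 4 comparisons was lost. The median correlation of the pairs was 0.0002 within states, with each state given equal weight. The cause of these shifts was not tested, except that thinning leaves fewer UMIs.

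Estimates near 0 turned sign. CPEB1 in remaining over POU5F1-high cells was 0.50 with library totals, 0.026 with no filter, 0.014 and 0.092 with gate thresholds at 0.125 and 0.5 of the reference level, 0.052 with at least 20000 UMIs, 0.046 in thinned cells, 0.0014 without cells with mouse markers, and -0.056 to 0.050 with a library left out. YBX2 there was 0.46 with totals, 0.41 with the 0.5 threshold, 0.020 with 20000 UMIs, 0.11 in thinned cells and -0.28 to 0.13 with a library left out, and DDX6 was 0.0069 with totals. In STRA8-positive over remaining cells YBX2 was 0.048 with totals, 0.0037 with DESeq2's size factors, 0.045 in DESeq2, 0.030 with no replicate block, 0.14 and 0.057 with thresholds at 0.125 and 0.5, and -0.093 to 0.16 with a library left out. DDX4 there was 0.023 with totals and 0.026 in thinned cells, and BOLL -0.26 with the 0.5 threshold. DDX4 in SYCE3-high over STRA8-positive cells was -0.061 with no filter, -0.0068 with no replicate block, -0.0068 without cells past several gates, -0.028 with the 0.125 threshold, -0.0044 with 20000 UMIs, -0.016 with 3 to 15% mitochondrial UMIs, -0.0071 without cells with mouse markers and -0.088 to 0.12 with a library left out. In EGR4/PIWIL4 over remaining cells ELAVL2 was 0.15 with totals, 0.091 with DESeq2's factors, 0.085 in DESeq2, 0.059 in thinned cells and -0.22 to 0.064 with a library left out, and BOLL -0.13 in thinned cells and -0.046 to 0.88 with a library left out. The cause was not tested.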
